A study of Rattus norvegicus with 16 samples.

Results

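CD8+ leukocytes from the blood of immunised rats were compared across a sorting gate for the class II MHC molecule RT1B, on 8 of the 16 arrays of the series. The members were the arrays whose titles name blood CD8+ cells of either gate: 4 arrays of RT1B+ cells and 4 of RT1Blow cells, in each case 2 from Wistar Kyoto (WKY) rats, the strain prone to this disease, and 2 from Lewis (LEW) rats. All 4 groups came from female rats aged 15 weeks that had been given an autoantigen inducing autoimmune glomerulonephritis, and blood was drawn on days 30 to 35. No unimmunised group was analysed here. Mononuclear cells were cleared over Ficoll and sorted in a magnetic bead procedure whose purity figures are not given in the sources used here, and the title of the second gate reads low, not negative, for RT1B. The comparison asks how transcripts of CD8+ blood cells with much surface RT1B differ from those of CD8+ blood cells with little, with strain as a block.

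RNA was read on Agilent 1-colour rat arrays, and the 8 arrays lay on 1 slide. On each array 57.3% to 67.5% of 58717 spots were well above background and 0 were saturated. Levels below are log2 signals above or below the 75th percentile of each array, so a difference of 1 is a 2-fold change, and the level of one probe is not comparable with that of another. Across the 17053 genes tested, the arrays of one group correlated at 0.979 to 0.993, and arrays of the same strain but opposite gates at 0.976 to 0.987. Whether the arrays of a group stand for separate animals, pools or repeats is not given in the sources used here, so p-values reflect only how arrays spread, which may be technical. RT1Blow RNA was hybridised in columns 1 and 2 of the slide and RT1B+ RNA in columns 3 and 4, so slide column and gate cannot be told apart. LEW RNA lay in row 1 and WKY RNA in row 2, so slide row and strain cannot be told apart either. Precision is limited by the number of arrays.

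MHC class II molecules are pairs of an alpha and a beta chain that hold peptides from ingested proteins for inspection by helper T cells. Their genes share promoter elements, the X and Y boxes, where the RFX and NF-Y complexes bind and recruit CIITA, the master transactivator that sets whether a cell makes class II at all. B cells, dendritic cells and macrophages carry class II at rest. Natural killer (NK) cells, which in rats often carry CD8 as a pair of alpha chains, are known for cytotoxic granules and not for class II.

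Promoter windows of 6 genes that were higher in RT1B+ cells are shown first, for the motif letters they hold. In 4 class II genes these are the X box, the Y box or both, known from class II promoters, with both only in RT1-Bb and RT1-Da. In the other 2 they are the octamer read by Oct factors and their B cell coactivator. Sequences are from RefSeq on GRCr8, which need not be the build of the array design, and are written 5′ to 3′ on the strand of the gene with motif matches in capitals. The first 4 windows end at the base before the annotated start: RT1-Bb lies at chr20:4604119-4604268 on the minus strand, RT1-Da at chr20:4515265-4515414 on the plus strand, RT1-DOa at chr20:4758424-4758573 on the minus strand and RT1-DOb at chr20:4627524-4627673 on the minus strand. The Blnk window, chr1:249770664-249770763 on the minus strand, spans bases 230 to 131 before the start. The Vpreb3 window, chr20:12718227-12718326 on the minus strand, spans bases 100 to 1 before it.
RT1-Bb: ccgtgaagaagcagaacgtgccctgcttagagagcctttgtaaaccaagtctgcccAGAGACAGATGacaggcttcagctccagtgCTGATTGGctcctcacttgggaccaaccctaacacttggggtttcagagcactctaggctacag
RT1-Da: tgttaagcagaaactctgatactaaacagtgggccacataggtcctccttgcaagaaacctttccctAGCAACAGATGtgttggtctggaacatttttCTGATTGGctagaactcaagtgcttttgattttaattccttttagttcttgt
RT1-DOa: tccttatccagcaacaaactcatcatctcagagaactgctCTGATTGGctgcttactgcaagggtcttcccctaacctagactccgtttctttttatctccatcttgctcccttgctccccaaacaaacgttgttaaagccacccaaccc
RT1-DOb: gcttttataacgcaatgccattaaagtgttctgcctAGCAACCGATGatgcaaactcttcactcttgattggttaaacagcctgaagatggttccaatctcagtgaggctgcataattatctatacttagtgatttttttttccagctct
Blnk: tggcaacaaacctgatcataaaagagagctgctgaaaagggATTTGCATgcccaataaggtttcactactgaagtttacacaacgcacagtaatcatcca
Vpreb3: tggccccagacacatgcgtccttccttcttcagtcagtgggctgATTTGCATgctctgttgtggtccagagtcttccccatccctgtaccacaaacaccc

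The letters searched, on both strands, were CTGATTGG for the Y box and ATGCAAAT for the octamer. For the X box they were those of AGAGACAGATG, with any base at the third, the fourth and the seventh place, as in AGCAACAGATG and AGCAACCGATG. The search covered 300 bases around each start, of which the windows above are stretches. Among 33469 rat promoters of 300 bases, 0.95% held the X box letters, 3.5% the Y box letters and 1.78% the octamer. RT1-Bb held an X box match 94 to 84 bases and a Y box match 64 to 57 bases before the start, and RT1-Da held them at 83 to 73 and 52 to 45 bases. RT1-DOa held the Y box letters alone, at 110 to 103 bases, and RT1-DOb the X box letters alone, at 114 to 104 bases. The octamer lay on the minus strand of both genes, 189 to 182 bases before the start of Blnk and 56 to 49 bases before that of Vpreb3. The boxes were also found outside the genes that passed: RT1-Db1, which did not pass, held the X box letters at 113 to 103 and the Y box letters at 83 to 76 bases, and RT1-Ha held the Y box letters at 115 to 108 bases. Of 19 genes looked up, 12 were matched, and Spib, Fcmr, Tnfrsf17 and RT1-DMa held none of the 3 motifs in these letters. A match describes the sequence and is no measured binding site.

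RT1B+ cells exceeded RT1Blow cells above all in B cell and class II transcripts, and fell below them in haemoglobin and mast cell protease transcripts. With strain as a block, 71 of 17053 genes tested passed (0.416%; limma, Benjamini-Hochberg adjusted p under 0.05 and at least 2-fold), 58 higher (0.34%) and 13 lower (0.0762%) in RT1B+ cells. The differences of these 71 ran from 1.07 to 6.60 in size on the log2 scale, with a median of 2.25, while the median difference over all genes tested was -0.05. Of the 71, 39 have a gene symbol, 31 higher and 8 lower. Of the 31, 17 belong to a list described here, and of the 8, 4 do. All 71 had the same sign in WKY and LEW and did not overlap between the gates within either strain. Of all genes tested, 3.54% were higher and 6.8% lower in this way, in the same direction in both strains. Over all 8 arrays 60 of the 71 did not overlap, where 1.37% of all genes tested were higher and 2.67% lower without overlap. The 71 were chosen on these same arrays, so these counts describe them and test nothing. Here and below, ± after a blood difference is the standard error of the limma fit over 4 arrays against 4.

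The calls depended on single arrays: 25 of the 71 passed whichever array was left out, 24 higher and 1 lower. The total was 44 without LEW RT1B+ replicate 1, 34 without LEW RT1Blow replicate 1, 35 without LEW RT1Blow replicate 2, 32 without WKY RT1B+ replicate 2, 34 without WKY RT1Blow replicate 1 and 118 without WKY RT1Blow replicate 2. The last array stood apart: without it the count of lower genes was 69 in place of 13, and 12 of the 13 were among them. When all 16 arrays were fitted together, 85 genes passed, 47 higher and 38 lower. Of 30 genes that passed and were followed singly through other settings, 18 lost the call when no filter on dim probes was applied, 16 without the strain block and 11 under normexp, a background correction of the raw spot signals. The sign changed for 0 of the 30 in these.

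The gated molecule itself checked the labels. RT1-Bb, the beta chain of RT1B, read 2.14 and 2.95 in WKY RT1B+ cells and 3.44 and 3.22 in LEW RT1B+ cells, against 1.32 and 0.99 in WKY RT1Blow cells and 1.40 and 1.55 in LEW RT1Blow cells. Every RT1B+ array lay above every RT1Blow array. The difference was 1.62 ± 0.21, or 3.08-fold (limma, adjusted p = 0.0235), and a second RT1-Bb probe gave 1.42. Since the cells were sorted on this molecule, this is a check and not a finding. The probe for the alpha chain, RT1-Ba, was called well above background on 0 of the 8 arrays.

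Beyond the gated chain, 4 more of the 16 class II list genes tested passed, all higher. The list thus held 5 higher and 0 lower, beside 0.34% and 0.0762% of all genes tested. Its median difference was 0.99, beside -0.05 over all genes, and 9 of the 16 were higher without overlap within each strain, beside 3.54% of all genes. RT1-DOa, the alpha chain of the DO chaperone that restrains peptide loading in B cells, read -4.79, -4.35, -2.99 and -3.44 in RT1B+ cells (WKY replicates 1 and 2, then LEW replicates 1 and 2, the order used from here on). In RT1Blow cells it read -6.56, -6.45, -6.08 and -5.30, where 1 of 4 arrays was well above background. RT1-DOa thus entered the test only through its RT1B+ arrays. The gates did not overlap, and the rise of 4.60-fold (2.20 ± 0.23, limma adjusted p = 0.00989) passed whichever array was left out. Under normexp it was 0.86 and did not pass (limma adjusted p = 0.0775).

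The transactivator gene Ciita read -4.30, -4.34, -2.24 and -3.34 in RT1B+ cells against -6.33, -6.28, -4.31 and -4.16 in RT1Blow cells. LEW arrays were higher than WKY arrays in both gates, so the gates overlapped across strains but not within them. The rise was 3.28-fold (1.71 ± 0.24, limma adjusted p = 0.0345), with 2 of 4 RT1Blow arrays well above background. RT1-Da, the alpha chain of the other classical class II molecule, read 1.77, 2.41, 3.39 and 2.79 against 0.44, 0.29, 1.41 and 1.58. It rose 3.15-fold (1.66 ± 0.19, limma adjusted p = 0.0153) without overlap. RT1-DOb, the beta chain of DO, read -3.08, -3.13, -1.29 and -1.84 against -4.10, -4.55, -3.91 and -3.31, and rose 3.11-fold (1.64 ± 0.24, limma adjusted p = 0.0462). Its gates did not overlap, but it passed in none of the 8 fits that left out an array, while Ciita and RT1-Bb passed in 1 of 8 and RT1-Da in 4 of 8. Under normexp Ciita and RT1-DOb, at 0.77 and 1.16, did not pass (limma adjusted p = 0.373 and 0.0553).

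The other 11 genes of the class II list did not pass. Cd74, the invariant chain that guards the class II groove, read 3.55, 4.0, 5.37 and 4.30 against 2.32, 2.23, 3.74 and 3.40, a difference of 1.38 ± 0.24 (limma adjusted p = 0.0883). Its gates separated within each strain, but the lowest RT1B+ array lay below the highest RT1Blow array. RT1-Db1, the partner chain of RT1-Da, differed by 1.07 ± 0.22 (limma adjusted p = 0.139). The 2 chains of DM, the catalyst of peptide exchange that DO holds in check, did not pass: RT1-DMa differed by 0.08 ± 0.13 (95% interval -0.23 to 0.39) and RT1-DMb by -0.08 ± 0.27 (95% interval -0.70 to 0.55). The RFX subunit genes Rfx5, Rfxap and Rfxank, which are made in most cells, differed by -0.08, -0.06 and -0.13. The class II list counted 1 to 4 higher genes when an array was left out: 1 without LEW RT1B+ replicate 1, without either LEW RT1Blow array or without WKY RT1Blow replicate 1, 2 without WKY RT1B+ or RT1Blow replicate 2, and 3 without WKY RT1B+ replicate 1. RT1 genes resemble each other, and a probe may read a relative of the gene it is named for. On the same arrays the mean of the B cell list, described next, was higher in RT1B+ cells as well, and its part in the class II rises was not tested.

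**Figure D1:**
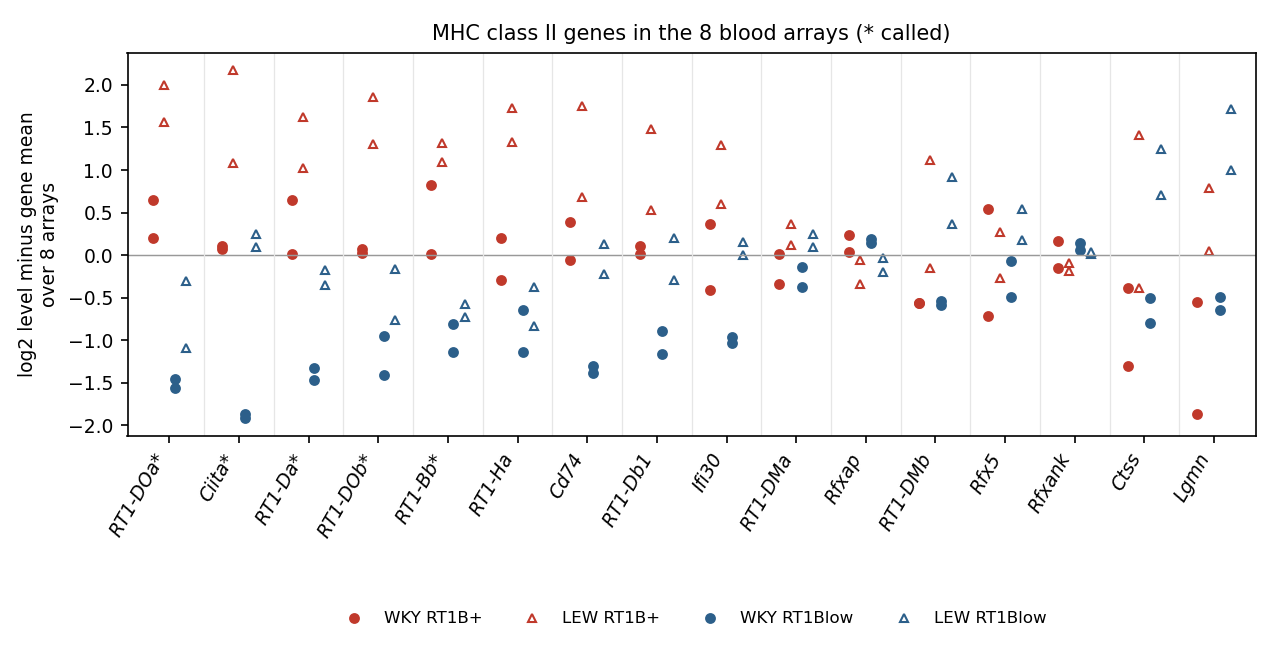
Log2 level of each of the 16 class II list genes tested, minus the mean of that gene over the 8 blood arrays, with 1 point per array. Red points are RT1B+ and blue points RT1Blow, filled circles are WKY and open triangles LEW, and a star marks the 5 genes that passed. The red points of the 5 starred genes lie above the blue points of the same strain, while those of RT1-DMa, RT1-DMb, Rfx5 and Rfxank are mixed.

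Of all 22 lists, that of B cells held the most genes that passed. Of 22 B cell list genes tested, 8 were higher and 0 lower, beside 0.34% and 0.0762% of all genes tested. The median difference was 1.10, and all 22 differences were above 0, beside 7093 of 17053 over all genes. Pou2af1, the B cell coactivator of Oct factors, read 0.24, 0.81, 1.41 and 0.37 in RT1B+ cells against -2.24, -2.31, -2.28 and -1.37 in RT1Blow cells, and rose 6.77-fold (2.76 ± 0.29, limma adjusted p = 0.00989). Blk, a Src family kinase of the B cell receptor, read -3.36, -3.92, -1.76 and -2.48 against -6.16, -6.26, -5.15 and -4.51, and rose 6.23-fold (2.64 ± 0.22, limma adjusted p = 0.00437). In both genes every RT1B+ array lay above every RT1Blow array, and for Blk 2 of the 4 RT1Blow arrays were well above background and the difference under normexp was 1.40. In bulk arrays, fewer cells of a type and less RNA per cell cannot be told apart, here and for each cell type below.

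A signalling gene of the B cell receptor and an IgM receptor gene moved with them. Cd79b, the beta chain of the receptor's signalling pair, read 0.06, 0.38, 1.48 and 0.77 against -2.29, -2.32, -1.74 and -1.32, a rise of 6.01-fold (2.59 ± 0.19, limma adjusted p = 0.00267). Fcmr, the receptor for the Fc part of IgM, read 0.59, 1.39, 2.20 and 1.84 against -1.05, -1.35, -1.25 and -0.42, a rise of 5.74-fold (2.52 ± 0.27, limma adjusted p = 0.0116). In both genes each RT1B+ array lay above each RT1Blow array.

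A further 3 were Spib, an Ets factor of B cells and plasmacytoid dendritic cells, Vpreb3, a protein of early B cells, and Blnk, the adaptor that links the receptor to its kinases. Spib read -0.32, 0.57, 1.28 and 0.97 against -1.62, -2.06, -1.80 and -0.81 (4.59-fold, limma adjusted p = 0.0273). Vpreb3 read -2.36, -1.61, -1.28 and -1.82 against -3.17, -3.64, -3.75 and -3.71 (3.48-fold, limma adjusted p = 0.0336). Blnk read -3.64, -3.95, -3.07 and -3.35 against -5.03, -6.03, -5.32 and -4.60 (3.35-fold, limma adjusted p = 0.0406). None of the 3 overlapped between the gates. Pou2af1, Blk and Cd79b passed whichever array was left out, and Fcmr in 7 of 8 fits, while Spib and Vpreb3 passed in 1 of 8 and Blnk in 2 of 8. Under normexp Blnk, at 0.83, did not pass (limma adjusted p = 0.126).

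Several defining B cell genes did not pass. Pax5, the B lineage commitment factor, lay between -1.38 and -0.86 on all 8 arrays, with a difference of 0.03 ± 0.11 (95% interval -0.23 to 0.29). Cd22, an inhibitory coreceptor, lay between -5.33 and -2.99 with a difference of 0.12 ± 0.24 (95% interval -0.44 to 0.68). Cr2, the complement receptor, and Fcer2, the low-affinity IgE receptor, both of mature B cells, differed by 2.20 ± 0.49 and 2.22 ± 0.45 without passing (limma adjusted p = 0.165 and 0.134). Ms4a1 and Cd79a have no probe with that name. The mean of the list's genes lay between -1.94 and -0.84 on the RT1B+ arrays and between -2.96 and -2.33 on the RT1Blow arrays. Leaving out an array gave 3 to 9 higher B cell genes: 3 without WKY RT1B+ replicate 2, 4 without LEW RT1Blow replicate 2, 5 without either LEW RT1B+ array or without LEW RT1Blow replicate 1.

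A separate list of B cell receptor and B cell activating signal genes held 1 higher gene among 14 tested, Ciita, with a median of -0.04. Its other member with a difference above 1 was Cd40, the receptor for T cell help, which read -0.73, -1.06, 0.75 and 0.11 against -2.10, -2.54, -0.55 and -0.51. That difference, 1.19 ± 0.20, did not pass (limma adjusted p = 0.0728). Of the 6 B7 and other costimulatory ligands tested, none passed (median -0.13), and Cd86, one of the B7 ligands read by T cells, differed by -0.11 ± 0.28.

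**Figure D2:**
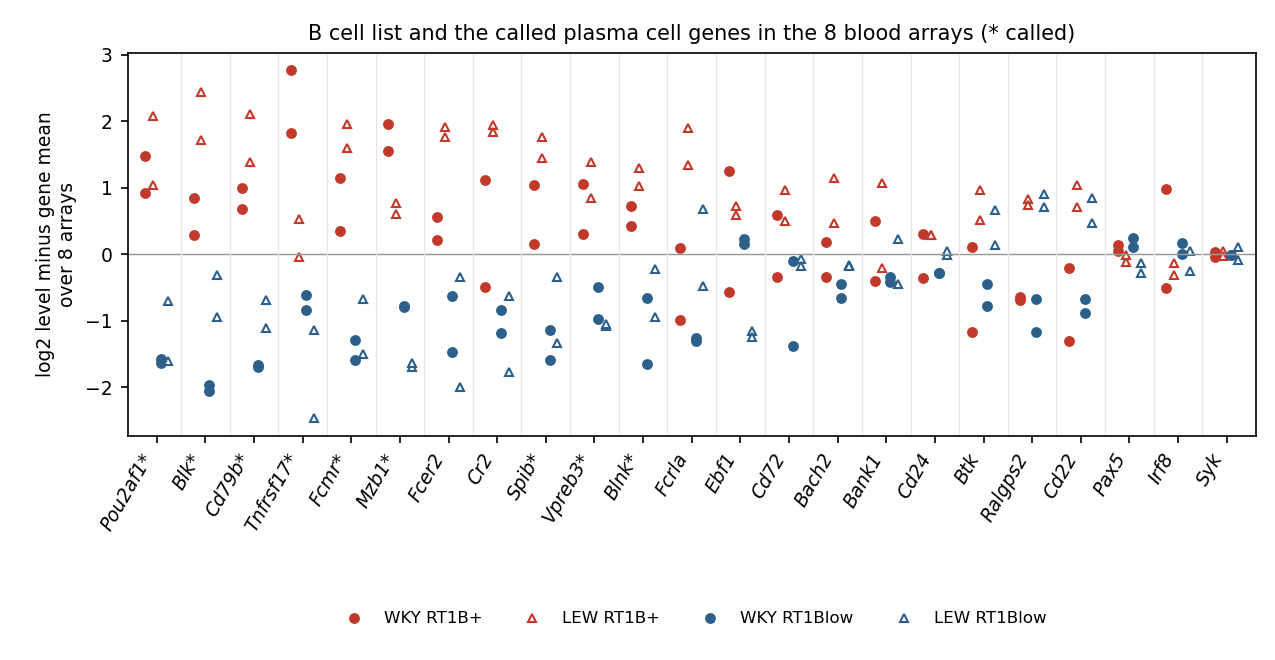
Log2 level of the B cell list genes that are reported singly and of the plasma cell genes Tnfrsf17 and Mzb1, minus the mean of each gene over the 8 blood arrays, with 1 point per array. Colours and symbols mark gate and strain (red RT1B+, blue RT1Blow, filled circles WKY, open triangles LEW), and a star marks a gene that passed; red and blue points are apart at the left and mixed at the right, from Btk to Syk.

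Plasma cell genes were divided. Of 8 tested, 2 were higher and 0 lower, beside 0.34% and 0.0762% of all genes tested, and the median was 0.35. Mzb1, an endoplasmic reticulum chaperone of antibody-secreting and marginal zone B cells, read -2.72, -2.31, -3.50 and -3.67 in RT1B+ cells and -5.04, -5.06, -5.97 and -5.91 in RT1Blow cells. WKY arrays were higher than LEW arrays in both gates, and the gates did not overlap. The rise was 5.46-fold (2.45 ± 0.13, limma adjusted p = 0.00135), the smallest adjusted p of any gene with a symbol, and it passed whichever array was left out. Under normexp the difference was 1.27.

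Tnfrsf17, the BCMA receptor of plasma cells, read -2.85, -1.90, -4.71 and -4.14 against -5.50, -5.28, -7.13 and -5.81, with 1 RT1Blow array well above background. It thus entered the test only through its RT1B+ arrays. It rose 5.78-fold (2.53 ± 0.37, limma adjusted p = 0.0425) and passed in 1 of 8 fits with an array left out, and the list held 1 higher gene in 7 of those fits. Under normexp the difference of Tnfrsf17 was 1.05 and did not pass (limma adjusted p = 0.347). The general regulators of antibody secretion did not pass: Prdm1 differed by 0.11, Xbp1 by -0.12 and the surface marker gene Sdc1 by -0.37. Derl3, of the same secretory programme, differed by 0.51 ± 0.11 without overlap within either strain but did not pass (limma adjusted p = 0.157).

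Gpr15 and Ccr10 were higher as well. Gpr15, which directs lymphocytes to the large intestine, read -3.21, -3.70, -2.81 and -4.29 in RT1B+ cells, and -6.89, -6.98, -6.76 and -6.64 in RT1Blow cells, where no array was well above background. It was at least 7.55-fold higher in RT1B+ cells (3.32 ± 0.30, limma adjusted p = 0.00655), where the floor is the lowest signal well above background on each RT1Blow array. The bound holds for the scanner's own background subtraction: under normexp the difference was 1.23 and did not pass (limma adjusted p = 0.382). Ccr10, the receptor for epithelial chemokines on skin-homing T cells and IgA plasma cells, read -2.14, -2.22, -2.34 and -2.20 against -4.37, -4.46, -4.78 and -3.97. The 4 RT1B+ arrays lay between -2.34 and -2.14, and the rise was 4.50-fold (2.17 ± 0.18, limma adjusted p = 0.00411). Both genes passed whichever array was left out, though Gpr15 entered the test only through its RT1B+ arrays. Ccr10 was the only one of 14 chemokine and egress receptor genes tested that passed (median -0.02), and Ccr7, the lymph node homing receptor, differed by 1.43 ± 0.38 (limma adjusted p = 0.250).

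Il17a, the cytokine of Th17 and innate-like lymphocytes, was the only one of 18 cytokine genes tested that passed (median -0.19). It read -3.58, -3.06, -2.06 and -2.13 in RT1B+ cells against -5.48, -4.51, -4.38 and -4.13 in RT1Blow cells. The gates did not overlap, the rise was 3.78-fold (1.92 ± 0.24, limma adjusted p = 0.0223), and 3 of 4 RT1Blow arrays were well above background. It passed in 2 of 8 fits with an array left out, was 1.23 under normexp, and rests on a single probe. Ifng, the interferon of NK and Th1 cells, differed by 0.02 ± 0.20.

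Other rises belonged to no list. Eaf2, an elongation factor partner known from B cells and prostate, was at least 3.95-fold higher (2.48 ± 0.18, limma adjusted p = 0.00267), and Ell3, an elongation factor of the same machinery, rose 2.89-fold (1.53 ± 0.15, limma adjusted p = 0.00877). Pxdc1 rose 5.43-fold, Tmbim1, a Golgi and lysosome membrane protein gene, 4.38-fold and the lysozyme-like gene Lyzl1 4.0-fold. These 5 passed whichever array was left out. Eaf2 was well above background on 3 RT1B+ arrays and 0 RT1Blow arrays, so it entered the test only through the gate where it is high. Reep6, which shapes the endoplasmic reticulum, rose by 2.32 ± 0.30 and Srpk3, a splicing factor kinase, by 1.41 ± 0.19 on the log2 scale, but Reep6 passed in 2 of 8 such fits and Srpk3 in none. Under normexp Pxdc1 and Reep6 differed by 1.44 and 1.46, and Eaf2, at 0.83, did not pass (limma adjusted p = 0.174). A probe for transcript ENSRNOT00000045874, which matched no symbol, also rose. It read -0.40, -0.60, -4.11 and -3.89 against -4.08, -3.57, -7.94 and -7.26, a difference of 3.46 ± 0.19 (limma adjusted p = 0.00135). WKY levels were higher in both gates, and neither LEW RT1Blow array was well above background.

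No NK or cytotoxic transcript passed. Of 20 NK receptor and adaptor genes tested, the median difference was -0.05, and of 16 granule and death ligand genes it was -0.10. Ncr1, the NK receptor NKp46, read 2.58, 2.48, 1.85 and 2.07 in RT1B+ cells and 2.54, 2.74, 2.25 and 2.25 in RT1Blow cells, and the gates overlapped. Its difference was -0.20 ± 0.12 (95% interval -0.47 to 0.07), and that of Klrb1a, the receptor NKR-P1A, was 0.00 ± 0.11 (95% interval -0.25 to 0.25). Prf1, the pore-forming granule protein, differed by -0.04 ± 0.18 and Gzmb, a granzyme, by -0.06 ± 0.16. On the pan T cell arrays of the other slide Ncr1 read -3.61 and -1.58. Cd8a, the chain used for sorting, lay between 4.11 and 4.82 on the 8 arrays, with a difference of -0.06 ± 0.18. Killer lectin and granzyme genes are families of similar sequence, so the member read by a probe is uncertain. The largest difference on these lists was Klrh1, a killer lectin-like receptor, at 1.53 ± 0.45 (limma adjusted p = 0.310). Of 10 NK and T lineage transcription factors tested none passed (median -0.16).

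No T cell transcript passed either. Of 20 T cell genes tested, the difference was above 0 for 14, with a median of 0.38, 0.46 in WKY and 0.12 in LEW. Over all genes tested the difference was above 0 for 7093 of 17053. Cd3g, a chain of the T cell receptor complex, read 2.25, 2.05, 2.46 and 1.57 in RT1B+ cells and -0.18, 0.07, 0.81 and 1.94 in RT1Blow cells. The gates were apart in WKY, by 2.20, and overlapped in LEW, where the difference was 0.63. Cd3e differed by 2.11 in WKY and 0.29 in LEW, and Cd8b, the beta chain of the CD8 heterodimer, by 1.38 and -0.55. On the other side Cd4, the coreceptor of helper T cells and of rat monocytes, differed by -1.36 ± 0.34 (limma adjusted p = 0.233), by -1.26 in WKY and -1.47 in LEW, without overlap in either. Of the 20 genes, 3 were lower and 2 higher without overlap within each strain, beside 6.8% and 3.54% of all genes tested. The strain difference itself passed for none of them, and the levels of Cd3d on the pan T cell arrays were 6.26 and 6.32 against 0.63 to 2.89 on the 8 arrays.

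Transcripts of red cells were lower in RT1B+ cells by the largest factors in the comparison. All 19 erythroid list genes tested had differences below 0, beside 9960 of 17053 over all genes, with a median of -3.96. Of the 19, 3 passed, beside 0.0762% of all genes as lower. All 3 were lower: Hba-a1, Hbb and Hbb-b1. Hbb-b1, a beta globin gene, read 2.73, 0.47, 0.61 and 0.48 in RT1B+ cells and 7.58, 4.82, 7.65 and 7.81 in RT1Blow cells, 59.4-fold lower (-5.89 ± 0.80, limma adjusted p = 0.0313). Outside the list, Hbe2, an embryonic-type beta globin gene, read 1.27, -1.27, -1.10 and -1.21 against 6.87, 3.35, 6.73 and 7.14, 96.8-fold lower (-6.60 ± 0.96, limma adjusted p = 0.0406). The gates did not overlap, and in both genes WKY RT1Blow replicate 2 was the lowest RT1Blow array and WKY RT1B+ replicate 1 the highest RT1B+ array.

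Hba-a1, an alpha globin gene, read 4.21, 1.89, 2.07 and 2.19 against 7.76, 6.10, 8.04 and 7.83, 28.7-fold lower (-4.84 ± 0.63, limma adjusted p = 0.0259), and a second probe gave -7.10. Hbb read 3.22, 0.89, 1.15 and 0.98 against 7.08, 5.01, 7.24 and 7.27, 34.1-fold lower. Hbe1, a globin gene outside the list, was 2.09-fold lower (-1.07 ± 0.16, limma adjusted p = 0.0425), with gates that overlapped across strains but not within them. It passed in 1 of 8 fits with an array left out. Under normexp it differed by -0.56 and did not pass (limma adjusted p = 0.429). Globin genes are near-copies of each other, and a probe may read more than 1 of them. Alas2, which starts haem synthesis in red cell precursors, differed by -7.12 ± 1.17, and Ahsp, the alpha globin chaperone, by -7.19 ± 1.27, without passing (limma adjusted p = 0.0666 and 0.0890). The mean of the list lay between -3.42 and -2.29 on RT1B+ arrays and between -1.34 and 1.75 on RT1Blow arrays, the lowest of these being WKY RT1Blow replicate 2. Without that array 14 of the 19 passed, without WKY RT1B+ replicate 1, 4 did, and with any other array left out 0 did. Red cell RNA thus moved with the gate on these arrays, and its part in the other differences was not tested.

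A mast cell protease gene of the mast cell and basophil list was lower as well. All 12 genes of that list tested had differences below 0, beside 9960 of 17053 over all genes. Their median was -1.07, and 1 passed as lower, beside 0.0762% of all genes. Cma1, mast cell chymase, read -6.45, -7.39, -7.57 and -5.55 in RT1B+ cells, with 1 of 4 arrays well above background, and -0.87, -3.34, -1.32 and -0.70 in RT1Blow cells. The gates were far apart, and the difference was 36.3-fold (-5.18 ± 0.63, limma adjusted p = 0.0209), a size that rests on RT1B+ arrays mostly at background. Mcpt1, another mast cell protease gene outside the list, read -6.83, -8.04, -7.95 and -8.48 against -2.94, -4.86, -2.86 and -1.99 and was at least 12.7-fold lower in RT1B+ cells (-4.67 ± 0.61, limma adjusted p = 0.0268). No RT1B+ array was well above background for it, so both Cma1 and Mcpt1 entered the test only through their RT1Blow arrays. Under normexp neither passed, with Cma1 at -2.52 and Mcpt1 at -1.62 (limma adjusted p = 0.0759 and 0.192).

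Other mast cell and basophil genes were less far apart. Cpa3, a mast cell carboxypeptidase, differed by -3.25 ± 0.58 (limma adjusted p = 0.0938), and Mcpt8, a basophil protease, by -0.75 ± 0.15 (limma adjusted p = 0.128). The receptor genes Fcer1a and Ms4a2, which define these cells, were too dim to test. The mean of the list lay between -5.17 and -4.31 on RT1B+ arrays and between -3.98 and -2.52 on RT1Blow arrays. Without WKY RT1Blow replicate 2, Cma1, Cpa3 and Tpsb2 passed. With either LEW RT1Blow array, WKY RT1Blow replicate 1 or WKY RT1B+ replicate 2 left out, 0 did. Proteases of this family are similar in sequence, so the member read is uncertain.

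**Figure D3:**
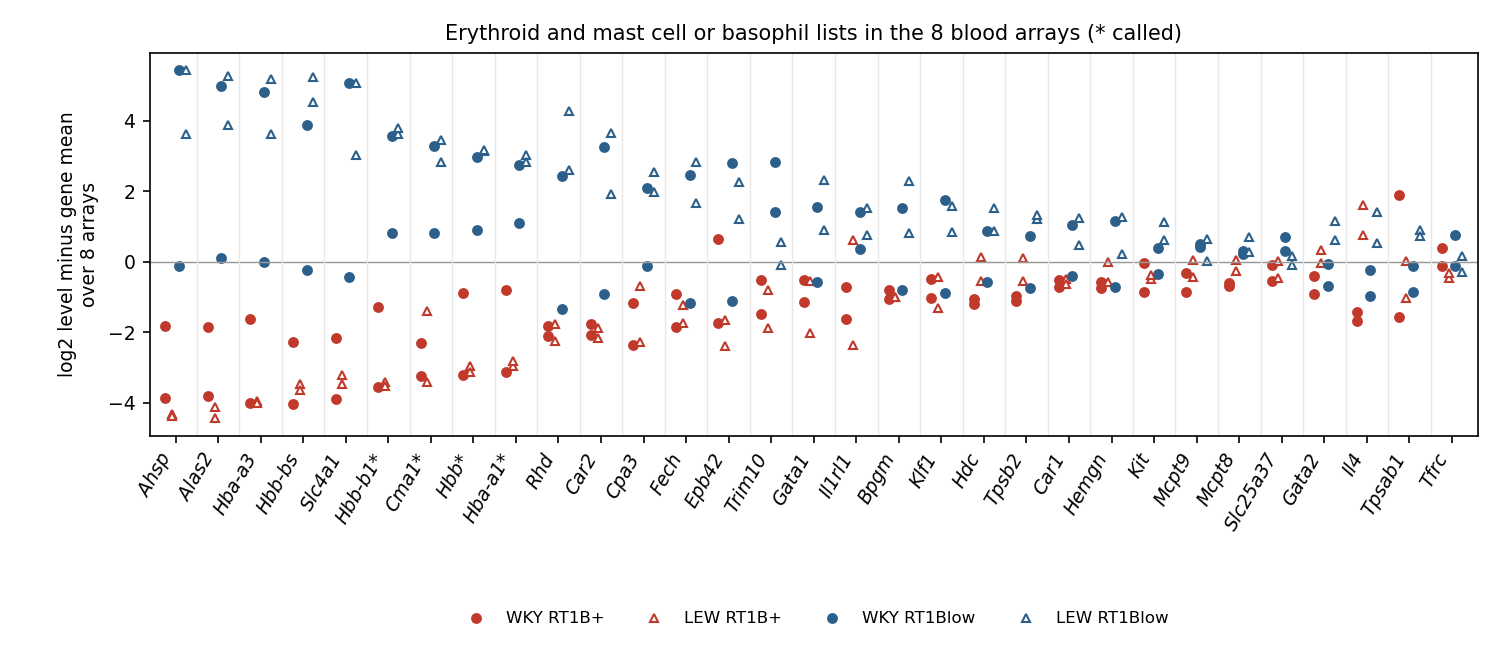
Log2 level of the 19 erythroid and 12 mast cell and basophil list genes tested, minus the mean of each gene over the 8 blood arrays, with 1 point per array. Red is RT1B+ and blue RT1Blow, filled circles WKY and open triangles LEW, a star marks a gene that passed; for the globin genes and Cma1 all blue points lie above all red points, and the lowest blue circle is WKY RT1Blow replicate 2.

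Monocyte and macrophage genes lay on the same side without passing. All 25 tested had differences below 0, beside 9960 of 17053 over all genes, with a median of -1.07. Of the 25, 9 did not overlap within either strain, beside 6.8% of all genes tested that were lower without overlap. Cd14, the lipopolysaccharide coreceptor, read -6.37, -2.51, -1.45 and -2.93 in RT1B+ cells and -1.97, -1.57, -0.56 and -1.21 in RT1Blow cells. WKY RT1B+ replicate 1 was far below the others, and the difference was -1.99 ± 0.80 (limma adjusted p = 0.462). Lyz2, lysozyme, read 1.86, 4.83, 6.67 and 5.01 against 5.07, 5.27, 6.85 and 6.39 (-1.30 ± 0.65, limma adjusted p = 0.560). The mean of the list lay between -2.74 and 0.31 on RT1B+ arrays and between -0.75 and 0.56 on RT1Blow arrays, which overlap. The inflammatory mediators Il1b, Ccl2 and Cxcl1 differed by -2.31, -2.40 and -2.03 (limma adjusted p = 0.134, 0.276 and 0.404), and of 15 chemokine genes tested none passed (median -0.30).

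No gene passed on the remaining lists. The median was -0.89 over 7 platelet genes, all below 0, -0.49 over 8 neutrophil genes and -0.14 over 13 dendritic cell genes. Over all genes tested, 9960 of 17053 differences were below 0. Of the dendritic cell markers, Zbtb46 differed by -0.75 ± 0.32 and Clec9a by 1.03 ± 0.31, and Xcr1 was too dim to test. The median was -0.16 over 26 interferon response genes, where Rsad2, an antiviral enzyme, differed by -4.14 ± 0.96 (limma adjusted p = 0.192). It was -0.28 over 15 MHC class I processing genes and -0.12 over 25 immediate early and heat shock genes. Over 26 cell cycle genes it was 0.14, with 0.37 in WKY and -0.12 in LEW.

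**Figure D4:**
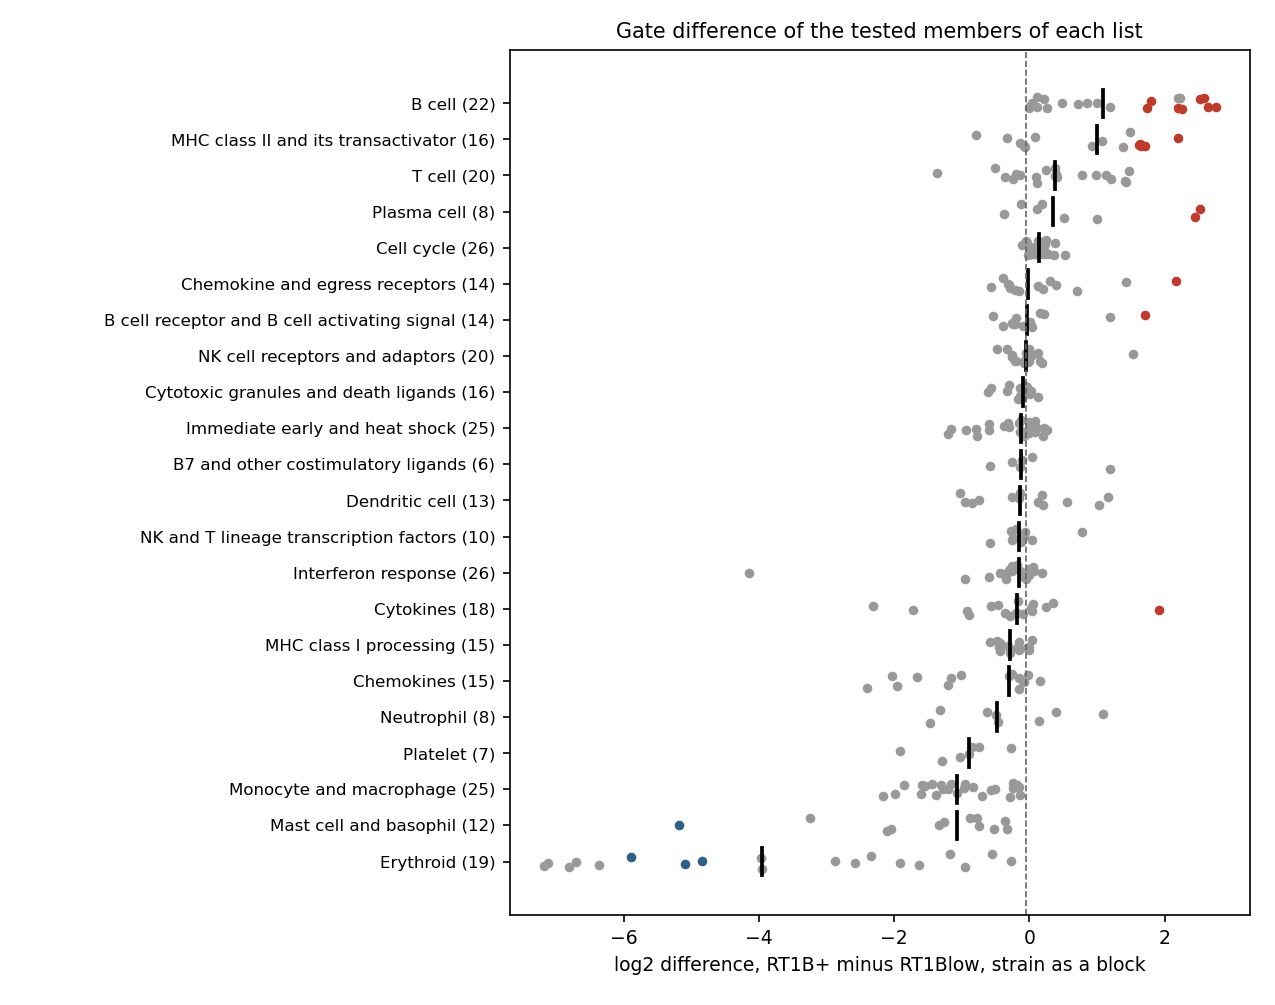
Log2 difference, RT1B+ minus RT1Blow with strain as a block, of every tested member of the 22 gene lists, with the number of members in brackets. Each point is a gene, red if it passed as higher and blue as lower, the black bar is the list median, and the dashed line is the median of all 17053 genes tested, -0.05; the B cell list (median 1.10) and the erythroid list (median -3.96) lie at the ends.

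Fitted within a strain, no gene passed. In WKY blood 0 of 17053 genes passed (0%), with 1160 at an unadjusted limma p under 0.05 and a smallest adjusted p of 0.0780. In LEW blood 0 passed (0%), with 799 at that unadjusted p and a smallest adjusted p of 0.0529. The difference between the strains passed for 0 genes (0%), with 384 at that unadjusted p, against 1738 for the block fit. Over the 71 genes the WKY difference minus the LEW difference ran from -1.51 to 2.98. Of the class II and B cell genes that passed, RT1-DOb differed most between strains (-0.82) and Pou2af1 by 0.09, and Hbe2 differed by 2.98, with the smaller difference in WKY. With 2 arrays against 2 these counts of 0 do not show that the strains were alike. With quantile normalization 37 genes passed in WKY and 1 in LEW. In WKY 103 passed without RT1B+ replicate 2, 6 without RT1B+ replicate 1 and 3 without RT1Blow replicate 2. In LEW 3 passed without RT1B+ replicate 1 and 2 without RT1B+ replicate 2, and the strain difference passed for 1 gene without WKY RT1B+ replicate 1.

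The same gate in WKY glomeruli, with 2 arrays of RT1B+ and 2 of RT1Blow cells released from digested glomeruli and hybridised on the other slide, was fitted beside the blood arrays. The blood difference exceeded the glomerular difference for 50 of 17645 genes (0.283%) and fell below it for 1 (0.00567%; limma, same thresholds). This comparison uses the same blood arrays as the one above. In glomeruli alone, 11 genes were higher (0.0623%) and 30 lower (0.17%) in RT1B+ cells. RT1-Bb went against 1 glomerular label: RT1Blow replicate 2 read 3.16, above the RT1B+ arrays at 2.45 and 2.54, while RT1Blow replicate 1 read 1.56. Without that array 175 genes passed, 128 above and 47 below, and 50 of the 51 were among them. The counts were 16 without glomerular RT1B+ replicate 1, 23 without replicate 2, 24 without WKY blood RT1Blow replicate 1, 27 without LEW RT1Blow replicate 1 and 33 without LEW RT1Blow replicate 2.

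Glomerular B cell genes lay on the RT1Blow side. The B cell list, at 1.10 in blood, had a median of -1.32 in glomeruli, beside -0.13 over all genes, and the tissue difference passed for 8 of its 22 genes, and for 9 without glomerular RT1Blow replicate 2. Fcmr read -4.42 and -5.56 in glomerular RT1B+ cells and -1.06 and -0.82 in glomerular RT1Blow cells, a difference of -4.05. Its blood difference of 2.52 was thus 6.57 ± 0.53 above the glomerular one, where ± is the standard error of the 12-array fit (limma adjusted p = 0.00172; 6.45 without the doubted array). For Cd79b the gap was 5.82 ± 0.65 (limma adjusted p = 0.00990) and for Blk 4.54 ± 0.42. Mzb1 and Il17a followed, with gaps of 3.70 ± 0.30 and 4.01 ± 0.50.

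Class II and red cell genes compared differently. Of the 16 class II genes, the tissue difference passed for RT1-DOa, at 3.85 ± 0.38 (limma adjusted p = 0.00420), and RT1-DOb, at 2.35 ± 0.35 (limma adjusted p = 0.0354), and the list median was -0.63 in glomeruli. RT1-Bb, RT1-Da and Ciita had tissue differences of 1.49, 2.21 and 2.04, which did not pass, and glomerular differences of 0.14, -0.56 and -0.33. Without the doubted array the tissue difference of RT1-Bb was 0.69. Ccr10 differed by 0.00 in glomeruli, and its tissue difference of 2.17 did not pass (limma adjusted p = 0.0787). The globin and protease genes that passed lay on the same side in both tissues: Hbb-b1 differed by -5.61, Cma1 by -4.91 and Hbe1 by -0.37 in glomeruli. The tissue differences of Hbb-b1 and Cma1, -0.29 and -0.27, did not pass, and were -1.12 and -1.59 without the doubted array. The median of the whole erythroid list was -0.66 in glomeruli, beside -0.13 over all genes there and -3.96 for the list in blood. That of the mast cell and basophil list was -1.01 in glomeruli and -1.07 in blood. Of the 58 genes higher in blood, 5 were above 0 in glomeruli. The median over all genes was below 0 there as well, and the share of all genes above 0 was not counted. Cavin3, a caveola coat protein gene, was the highest of the 5, at 1.55 in blood and 2.13 in glomeruli. It entered the blood test only through its RT1B+ arrays.

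**Figure D5:**
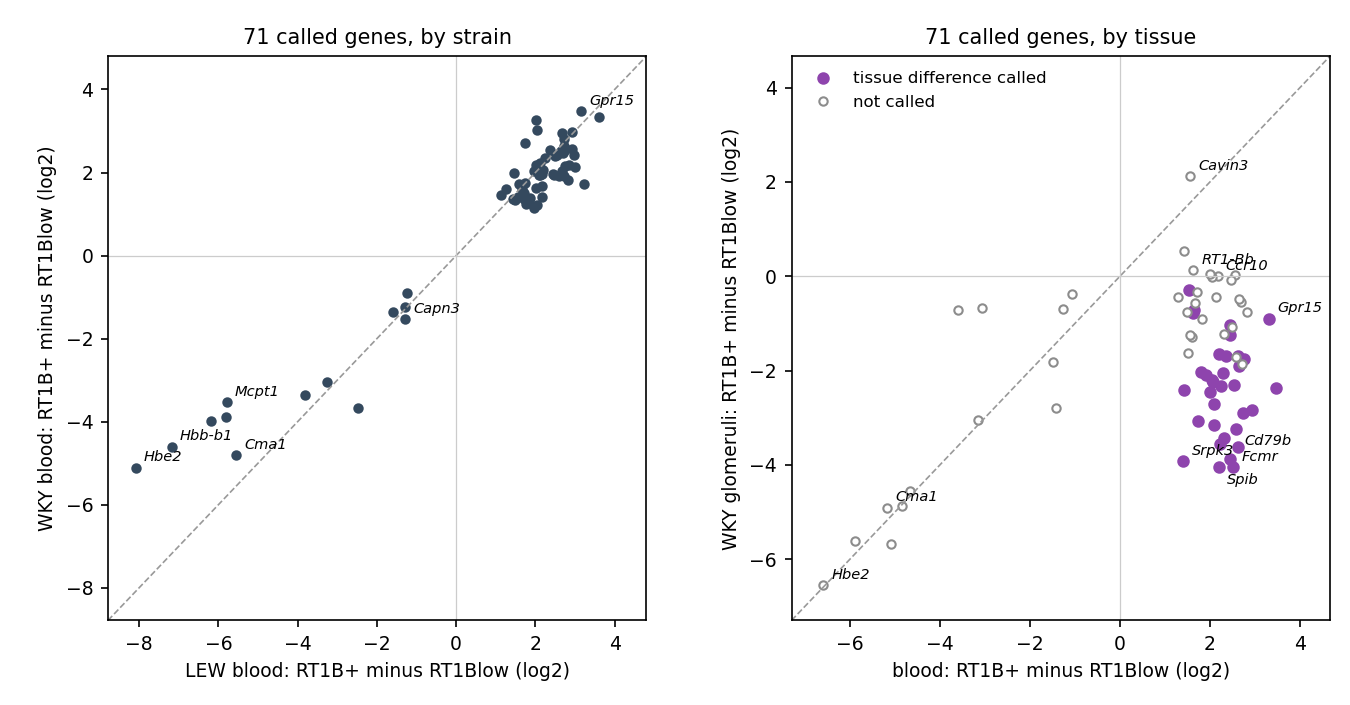
Gate differences, RT1B+ minus RT1Blow in log2 units, of the 71 genes that passed in blood, 1 point per gene with the dashed line marking equal values. Left, LEW against WKY blood, where all 71 have the same sign in both. Right, blood against WKY glomeruli, where 53 of the 58 genes higher in blood are below 0 in glomeruli. The glomerular median over all genes was -0.13, and filled purple points mark the genes whose tissue difference passed.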

How the data were processed

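Per the file headers, the deposited values are linear-scale spot intensities from Feature Extraction 11.0.1.1, which subtracts background within an array; arrays were not yet scaled to each other. The series' design text describes Illumina arrays, which these files are not. The deposited series matrix of the authors holds log2 values with array medians of 8.04 to 8.13 and 12.1% to 20.0% missing; its centring step is not given in the sources used here. It served as an alternative only.

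Processed signals were taken as log2 minus the 75th percentile of the array. Outlier spots were dropped, replicate spots averaged, and a gene was read by its probe with the highest mean over 16 arrays. Probes matched a symbol by accession for 18347 of 30367 (RefSeq on GRCr8, for names only). Genes whose probe was well above background throughout 1 group or more were tested with limma 3.58.1 in R 4.3.3: strain plus gate over 8 arrays, 4 group means for the strains, and 12 arrays for the tissue difference. A gene passed at a Benjamini-Hochberg adjusted p under 0.05 and at least 2-fold. Fitting was tested on simulated data. Tables and plots used Python 3.11.15, pandas 2.3.3 and matplotlib 3.10.9.

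The rule for named genes took up to 15 passing genes per direction with a symbol and no overlap within either strain, any member of 22 lists, and up to 6 per direction for the strain and tissue differences. The transcript without a symbol, and Ell3, Lyzl1, Cavin3 and Srpk3 in blood, were chosen after their values were seen. A member of the B cell list counts in its totals but is not reported here by itself. Members and lists were chosen with earlier results of these data known. Alternatives were normexp with an offset of 50 (on median spot signals, since the files hold no means), quantile normalization, the matrix values, no or a strict filter, the mean of probes, no fold minimum, trended and robust variance, array weights, other fits and each array left out.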

Additional observations from a re-analysis of the deposited data

Results flagged for a closer look

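For 7 genes the blood gate difference, RT1B+ minus RT1Blow, differed between blood and WKY glomeruli by the limma test of that difference, and they are the largest with a symbol in each direction. The blood value lay above the glomerular one by 6.57 for Fcmr, 6.24 for Spib, 5.82 for Cd79b, 5.32 for Srpk3, 4.83 for Tnfrsf17 and 4.82 for Blnk (limma adjusted p = 0.00172, 0.0100, 0.00990, 0.0108, 0.0159 and 0.0385). Each of the 6 rose in blood RT1B+ cells, while the glomerular differences were -4.05, -4.04, -3.23, -3.92, -2.30 and -3.08 in that order. Without glomerular RT1Blow replicate 2, whose RT1-Bb level goes against its label, the gaps were 6.45, 5.33, 6.80, 4.52, 4.42 and 3.78. Slc30a3, a zinc transporter gene, was the single gene below: its gap was -3.38 (limma adjusted p = 0.0453; -3.65 without that array), from a blood difference of -1.62 that did not pass (limma adjusted p = 0.109) and a glomerular difference of 1.76. Tissue lies with slide and with strain here, since glomeruli came from WKY rats alone.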

How the results depend on the processing

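For blood with strain as a block, the 71 genes became 43 with normexp, 30 without a filter on dim probes, 30 with the strict filter and 33 without the strain block, and 32 to 118 with an array left out; other settings gave 56 to 93. For WKY alone, the 0 became 1 with normexp, 37 with quantile normalization, 1 with the matrix values, 5 with trended and robust variance and 13 with all 16 arrays, and 0 to 103 with an array left out. For LEW alone, the 0 became 1 with quantile normalization, 3 with the strict filter, 10 with trended and robust variance, 23 with all 16 arrays and 11 with array weights, and 0 to 3 with an array left out. The strain difference gave 1 gene with the matrix values and 0 to 1 with an array left out. The tissue difference, 51 genes, became 28 with normexp, 18 without a filter, 22 with the strict filter, 22 with the matrix values and 33 with array weights, and 16 to 175 with an array left out. Of 30 named genes that passed, the sign changed for 0 in the settings other than leaving out an array. Normexp drew the medians towards 0, to 0.56 for class II (2 higher), 0.77 for B cells (7 higher), -0.51 for mast cells, -2.80 for erythroid genes (4 lower) and -0.43 for platelets. The cause was not tested. Genes dim in 1 gate have the least certain folds. No paired analysis was possible because the labels carry no replicate numbers.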
